A study of Macaca fascicularis with 11 samples.

Results

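CGA, INSL4, HSD3B1, HSD17B2 and NPPB, 5 of the 19367 genes in the deposited matrix, were followed through cynomolgus monkey (Macaca fascicularis) embryos cultured in vitro. They were chosen by symbol as placental hormone and steroid genes and matched to the Ensembl identifiers ENSMFAG00000037707, ENSMFAG00000042244, ENSMFAG00000041983, ENSMFAG00000002586 and ENSMFAG00000032207, in that order, through the supplementary tables of the study. Single-cell RNA sequencing (10x, 3′ v3 chemistry) gave 33330 cells in 11 libraries. Of these, 6 came from wild-type (WT) embryos, with 2 libraries at each of Day 10, Day 12 and Day 14, and 5 from ISL1 hypomorphic mutant embryos, with 1 library at Day 10 and 2 at Day 12 and at Day 14. A library held 1 to 3 embryos, 12 WT and 11 mutant embryos in all. Mutant embryos had been injected at the zygote stage with SpCas9 and guide RNAs against ISL1, and the study describes them as mosaic. Embryos of both genotypes were cultured past the blastocyst stage in media to which β-estradiol and progesterone had been added, so these steroids were present in every group. Levels are given as CPM, the UMIs (unique molecular identifiers, 1 per captured molecule) of a gene per 1000000 UMIs of the same cells. ISL1 transcripts stood at 0.901 to 8.38 CPM in WT and at 1.42 to 4.67 in mutant libraries, over all cells, and these ranges overlap. A count table does not show the deletions, so this is no check of the genotype labels.

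The trophoblast is the outer lineage of the embryo that forms the placenta. Its progenitors, the cytotrophoblast, give rise to the syncytiotrophoblast, a hormone-secreting layer, and to extravillous trophoblast, which invades the uterine wall. CGA encodes the alpha subunit shared by chorionic gonadotropin and the pituitary glycoprotein hormones, and chorionic gonadotropin is the early pregnancy signal that maintains the corpus luteum. INSL4 encodes placentin, a peptide of the insulin and relaxin family made in the primate placenta. HSD3B1 encodes the placental 3β-hydroxysteroid dehydrogenase, which converts pregnenolone to progesterone. HSD17B2 encodes a 17β-hydroxysteroid dehydrogenase that oxidizes estradiol to estrone and testosterone to androstenedione. NPPB encodes B-type natriuretic peptide, a hormone best known from the heart.

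Cell labels were not used here, and cells were clustered within each library without the 5 genes and the clusters were named from other markers. This gave 23089 trophoblast-like, 2612 Epi-derived-like (epiblast and its derivatives), 6338 ExE-Mech-like (extra-embryonic mesenchyme), 414 endoderm-like and 56 amnion-like cells, while 468 cells sat in clusters with markers of more than 1 lineage and 353 stayed unnamed. The 14 trophoblast markers, summed, stood at 6961 to 23950.4 CPM in trophoblast-like cells and at 238 to 1049.7 CPM in Epi-derived-like cells. The same sum ran over libraries from 422 to 1665 CPM (ExE-Mech-like) and from 732 to 4248 CPM (endoderm-like). None of the 14 was at 0 in the trophoblast-like cells of any library. Trophoblast-like clusters were named from the level and detection of these markers, so these values are no independent check of the names. Between 36654977 and 164808415 UMIs were counted per library, and the median cell held between 10916 and 142180 UMIs. The library of mutant Day 14 replicate 1 was the shallowest per cell, and WT Day 12 replicate 1, made from 1 embryo, was the deepest and held no Epi-derived-like cluster. In all, 124 cell barcodes occurred in more than 1 library, on 249 cells.

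By their medians over libraries, all 5 genes were highest in trophoblast-like cells. The median over libraries was 6939 CPM in trophoblast-like cells for CGA, against 72.5 CPM in Epi-derived-like, 197 CPM in ExE-Mech-like and 69.0 CPM in endoderm-like cells. For INSL4 the medians in these classes were 1107 CPM, 4.96 CPM, 6.40 CPM and 7.29 CPM. HSD3B1 had 555 CPM in trophoblast-like cells and between 4.60 and 7.49 CPM in the other classes. NPPB had 963 CPM in trophoblast-like cells, 13.5 CPM in Epi-derived-like cells, 34.6 CPM in ExE-Mech-like cells and 9.94 CPM in endoderm-like cells. HSD17B2 had 245 CPM in trophoblast-like cells and 23.6 CPM in endoderm-like cells. These levels are a description, because the study lists CGA, INSL4, HSD3B1 and HSD17B2 among its trophoblast genes from the same cells. SoupX contamination was set by the authors from chorionic gonadotropin reads in POU5F1-positive cells, so the CGA level of Epi-derived-like cells was partly set by that step. The correction had removed a median of 64.6% of the CGA UMIs of Epi-derived-like cells, but 2.46% of those of trophoblast-like cells. In bulk sums of this kind, fewer cells that make a transcript and less transcript per cell cannot be told apart.

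**Figure D1:**
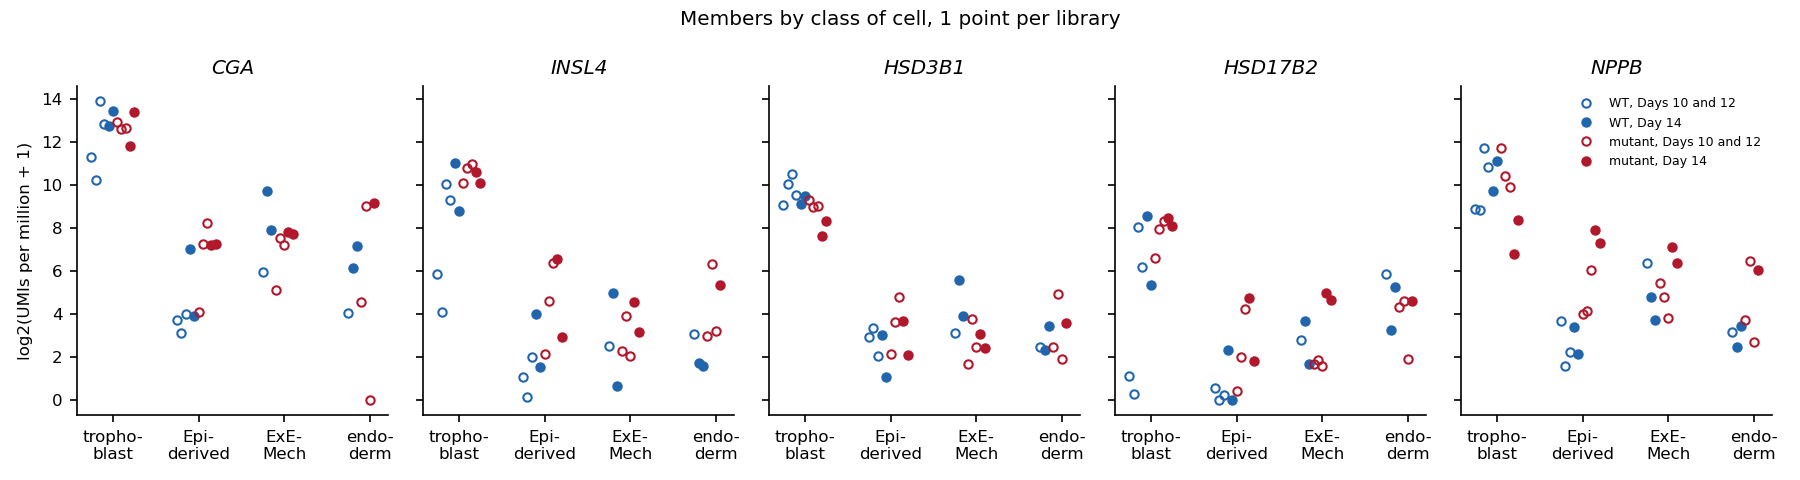
Level of each gene, as log2(CPM + 1), in 4 classes of cell, with 1 point for each library, blue for WT and red for mutant, filled for Day 14. Every trophoblast-like point lies above every point of the other classes for CGA and HSD3B1, while the WT Day 10 points of HSD17B2 lie at 1.17 and 0.209 CPM, and the mutant Day 14 points of NPPB are the lowest in trophoblast-like and the highest in Epi-derived-like cells.

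HSD17B2 departed from this order in WT at Day 10. The WT Day 10 trophoblast-like cells gave 38 UMIs (1.17 CPM) in replicate 1 and 9 UMIs (0.209 CPM) in replicate 2. In replicate 1 the 43 endoderm-like cells alone gave 150 UMIs, or 57.5 CPM. Before the ambient RNA correction, HSD17B2 UMIs amounted to 137% of CGA UMIs in these endoderm-like cells and to 0.0460% in the trophoblast-like cells of the same library. The 2 classes thus held these genes in different ratios. In replicate 2, a cluster of 57 cells with markers of both Epi-derived and endoderm cells gave 36 HSD17B2 UMIs, more than its 412 trophoblast-like cells together. In the mutant Day 10 library the trophoblast-like cells were higher, with 96.3 CPM against 18.9 CPM in its 25 endoderm-like cells. At Day 14, endoderm-like cells of the WT libraries held 8.62 CPM (47 cells) and 37.8 CPM (33 cells, 19 UMIs before the correction). The 14 trophoblast markers, summed, stood at 881 and 4248 CPM in these cells, and their part was not tested.

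CGA in WT trophoblast-like cells stood at 2515 and 1207 CPM at Day 10, 15487 and 7405 CPM at Day 12 and 6939 and 11214 CPM at Day 14, for replicates 1 and 2. Both Day 10 libraries lay below the other 9 libraries, and the Day 12 and Day 14 values overlapped. In mutants CGA stood at 7975 CPM in the 1 Day 10 library, 6211 and 6411 CPM at Day 12 and 3616 and 10827 CPM at Day 14. The Day 14 mutant libraries thus lay on either side of those of Day 12. UMIs were summed per library and compared with edgeR's quasi-likelihood test (two-sided, Benjamini-Hochberg adjustment over all genes tested, false discovery rate 1%). CGA differed by 2.24 on the log2 scale between WT Day 14 and Day 10 (standard error 0.64, edgeR adjusted p = 0.0640) and did not pass.

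INSL4 was low in WT trophoblast-like cells at Day 10, with 56.7 and 16.3 CPM. It had 1077 and 643 CPM at Day 12 and 2116 and 450.4 CPM at Day 14, so the Day 14 replicates differed widely from each other. Mutant libraries had 1114 CPM at Day 10, 1774 and 2033 CPM at Day 12 and 1546 and 1107 CPM at Day 14. WT Day 14 and Day 10 differed by 5.17 in log2 units (standard error 0.93, edgeR adjusted p = 0.0149), which passed at a false discovery rate of 5% but not of 1%. With 1 library left out at a time the difference ran from 3.50 to 6.40, and without WT Day 10 replicate 2 it no longer passed 5% (edgeR adjusted p = 0.101).

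HSD17B2 was likewise low at WT Day 10. WT libraries had 1.17 and 0.209 CPM at Day 10, 262 and 72.4 CPM at Day 12 and 379 and 40.4 CPM at Day 14. Mutants had 96.3 CPM at Day 10, 245 and 324 CPM at Day 12 and 358 and 273 CPM at Day 14. The difference between WT Day 14 and Day 10 was 8.35 in log2 units (standard error 1.46, edgeR adjusted p = 0.0143), again past 5% and not past 1%. Leaving out 1 library at a time gave 5.81 to 10.07, and the call at 5% was lost without WT Day 10 replicate 1 (edgeR adjusted p = 0.0558) and without replicate 2 (edgeR adjusted p = 0.108). In WT Day 14 replicate 2, both INSL4 and HSD17B2 were the lowest of the libraries from Day 12 and Day 14. The share of all genes lowest in that library was not counted.

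HSD3B1 showed no such step. In WT it stood at 538 and 1063 CPM at Day 10, 1482 and 739.5 CPM at Day 12 and 555 and 716 CPM at Day 14, and the Day 10 values enclosed those of Day 14. WT Day 14 minus Day 10 was -0.34 in log2 units (standard error 0.45, edgeR adjusted p = 0.694). Mutants had 632 CPM at Day 10, 513 and 528 CPM at Day 12 and 198 and 320.2 CPM at Day 14, so the Day 14 mutants were the lowest of the 11 libraries. The 4 mutant libraries of Day 12 and Day 14 all lay below the 4 WT libraries of those days. It was the 1 of the 5 genes whose genotypes did not overlap over both days, beside 7.73% of all genes tested.

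NPPB stood at 470.0 and 453 CPM in WT at Day 10, 3448 and 1862 CPM at Day 12 and 846 and 2254 CPM at Day 14. The WT Day 14 minus Day 10 difference was 1.70 in log2 units (standard error 0.62, edgeR adjusted p = 0.128). In mutants the level was 3349.8 CPM at Day 10, 1383 and 963 CPM at Day 12 and 110.0 and 334 CPM at Day 14. The mutant Day 14 libraries were the lowest of the 11, and the mutant Day 10 library was among the 2 highest. NPPB and HSD3B1 were lowest there, 2 of the 5 genes, beside 6.78% of all genes, and CGA, INSL4 and HSD17B2 were lowest in the WT Day 10 libraries, beside 14%.

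**Figure D2:**
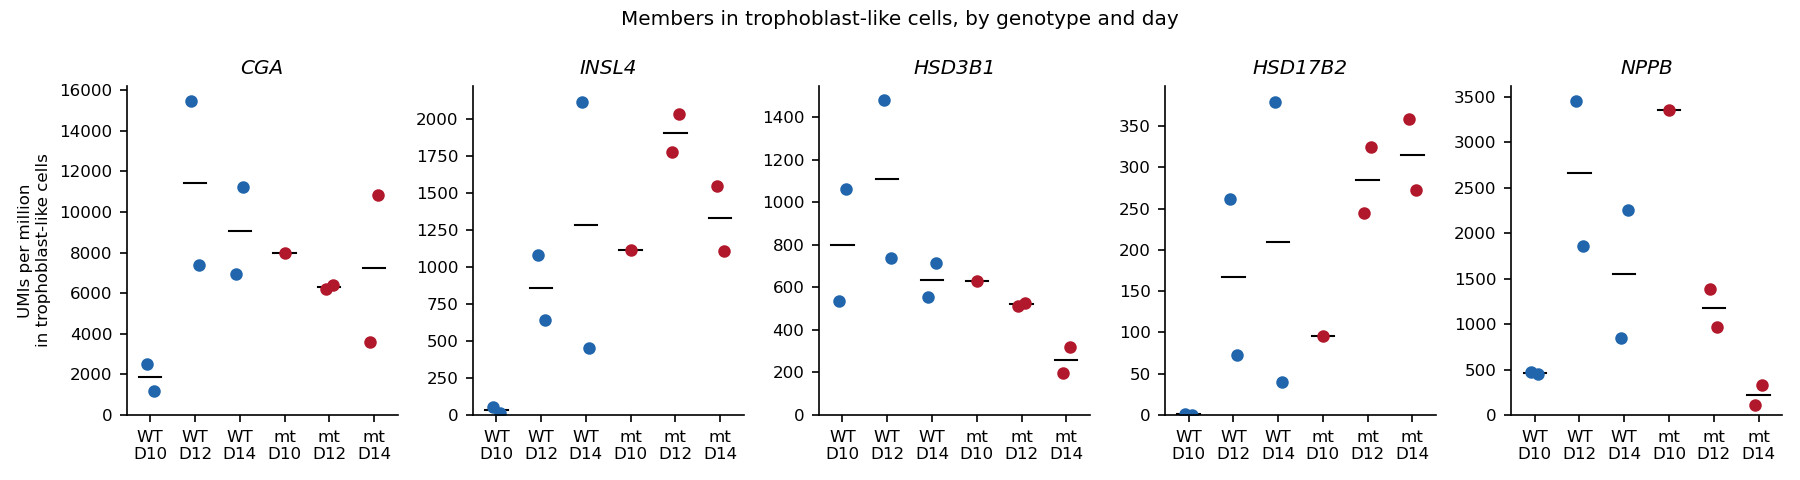
Level of each gene in trophoblast-like cells in CPM (linear axes from 0), by genotype and day, with 1 point for each library and a black bar at the mean of the group. CGA, INSL4 and HSD17B2 are lowest in WT Day 10, and HSD3B1 and NPPB are lowest in mutant Day 14, where NPPB stood at 110.0 and 334 CPM.

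In the WT comparison of Day 14 with Day 10, which asks how hormone genes move as the cultured trophoblast matures, 0 of the 5 genes passed a false discovery rate of 1% and 2 passed 5%. Of all 15140 genes tested, 1.62% passed 1% (1.07% higher and 0.548% lower at Day 14) and 10.3% passed 5% (6.37% higher and 3.88% lower). Marker sums of every lineage also separated these trophoblast-like cells. The 14 trophoblast markers stood at 9471 and 6961 CPM at Day 10 and 20416 and 13103 CPM at Day 14, and the 10 ExE-Mech markers at 26.2 and 21.8 CPM and then 28.7 and 70.2 CPM, with 3 and 5 of them at 0 at Day 10. The 10 endoderm markers were lower at Day 14, with 35.3 and 74.2 CPM against 631 and 753 CPM, as were the 11 Epi-derived markers, with 220.0 and 249 CPM against 629 and 468 CPM, and the 11 amnion markers, with 241 and 345 CPM against 386 and 450.5 CPM. Their part in the result was not tested. At an unadjusted p under 0.05 edgeR gave 4 of the 5 genes beside 25.7% of all genes. DESeq2 gave 3 (CGA, INSL4 and HSD17B2) at 1%, beside 12.3% of the genes to which it gave an adjusted p (the base of every DESeq2 share given here), and limma on the mean of cells gave 2, beside 2.71%. With no filter on low counts edgeR gave 2 at 1%, beside 2.87%. The batch label was taken to pair replicates within a genotype, and with that block INSL4 (edgeR adjusted p = 0.00565) and HSD17B2 (edgeR adjusted p = 0.00381) passed 1%, beside 1.02% of all genes. With a block shared by both genotypes 0 of the 5 passed, beside 1.06%. INSL4 and HSD17B2 also passed without WT Day 14 replicate 2, with edgeR adjusted p = 0.00399 for INSL4 and 0.00341 for HSD17B2, beside 2.97% of all genes, and 0 of the 5 passed 1% without any 1 of the other 3 libraries.

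The mutant Day 10 library lay above both WT Day 10 libraries for 4 of the 5 genes and between them for HSD3B1, beside 40.9% of all genes that lay above both. INSL4 stood at 1114 CPM in it against 56.7 and 16.3 CPM, HSD17B2 at 96.3 CPM against 1.17 and 0.209 CPM, and NPPB at 3349.8 CPM against 470.0 and 453 CPM. In its trophoblast-like cells the endoderm markers, summed, stood at 15.1 CPM against 631 and 753 CPM in WT Day 10, the Epi-derived markers at 347 against 629 and 468 CPM and the amnion markers at 360 against 386 and 450.5 CPM. The trophoblast markers stood at 13147 against 9471 and 6961 CPM and the ExE-Mech markers at 41.96 against 26.2 and 21.8 CPM. With 1 mutant library at this day no test was made, and a difference of genotype and one of library cannot be told apart.

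Mutant and WT trophoblast-like cells were compared at Day 12 and Day 14 to ask whether the ISL1 mutation went with other levels of placental hormone genes. At Day 14, NPPB was -2.72 in log2 units in mutants relative to WT (standard error 0.64, edgeR adjusted p = 0.195) and HSD3B1 was -1.26 (standard error 0.45, edgeR adjusted p = 0.307). CGA (-0.27), INSL4 (-0.01) and HSD17B2 (0.52) had smaller differences, with standard errors between 0.62 and 1.03. Of the 5 genes 0 passed 1%, and 0% of the 15140 genes did. At an unadjusted p under 0.05 edgeR gave 2 of the 5 (NPPB and HSD3B1), DESeq2 gave 1 at 1% (NPPB, DESeq2 adjusted p = 0.00100), beside 1.73% of its genes, and limma gave 0, beside 0.0925%. Across all genes 13.3% had an unadjusted p under 0.05 in edgeR and 0% passed 5%. The groups of NPPB did not overlap, with both mutant values under both WT values, and the same held for HSD3B1. These are 2 of the 5 genes, where 46% of all genes tested did not overlap between the same libraries, so the count does not set the members apart. The ExE-Mech markers in these trophoblast-like cells also separated by genotype, with 123.9 and 94.0 CPM in mutants against 28.7 and 70.2 CPM in WT and none at 0, while the sums of the other 4 marker lists overlapped. Their part in the result was not tested.

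At Day 12 the differences between mutant and WT were -1.30 for NPPB (standard error 0.61, edgeR adjusted p = 0.360) and -1.21 for HSD3B1 (standard error 0.45, edgeR adjusted p = 0.274) on the log2 scale. They were -0.98 for CGA, 1.04 for INSL4 and 0.63 for HSD17B2, with standard errors between 0.62 and 1.03. Again 0 of 5 genes passed 1%, against 0.00661% of all genes, and edgeR gave 1 at an unadjusted p under 0.05 (HSD3B1) beside 15.4% of all genes. DESeq2 and limma gave 0 at 1%, beside 2.36% of the genes with a DESeq2 adjusted p and 0.0528% of those tested in limma. Between Day 12 and Day 14 in mutants NPPB was -2.30 (standard error 0.63, edgeR adjusted p = 0.317) and HSD3B1 -0.92 (standard error 0.45, edgeR adjusted p = 0.525), and 0 of 5 passed against 0.00661% of all genes at 1% and 0.0132% at 5%. NPPB was the 1 gene of the 5 with an unadjusted p under 0.05 there, beside 10.3% of all genes, and DESeq2 and limma called 0, beside 1.18% and 0.0594%. The mutant effect at Day 14 minus that at Day 12, tested as an interaction, was -1.42 for NPPB (standard error 0.86, edgeR adjusted p = 0.631) and -0.04 for HSD3B1 (standard error 0.63, edgeR adjusted p = 0.996). Here 0 of 5 genes passed by edgeR, DESeq2 or limma and 0 had an unadjusted p under 0.05, beside 0% and 9.64% of all genes in edgeR. At 5% the share of all genes was 0.00661% in edgeR, and at 1% it was 0.607% in DESeq2 and 0.0198% in limma. These comparisons share libraries with each other. At Day 12 the ExE-Mech markers stood at 58.4 and 64.2 CPM in mutant and 31.1 and 46.5 CPM in WT trophoblast-like cells and the amnion markers at 297 and 295 CPM against 598 and 404 CPM, and their part was not tested. Mutant days also separated by ExE-Mech markers, which stood at 123.9 and 94.0 CPM at Day 14. The trophoblast markers stood at 17786 and 20808 CPM at mutant Day 14 against 15658 and 17244 CPM at mutant Day 12. The other marker lists overlapped between mutant days, and the part of these markers was not tested.

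Within the trophoblast-like cells the 5 genes did not all peak in the same cluster, though some of them shared one. In the 87 trophoblast-like clusters of the 11 libraries, LAIR2 and ISM2, listed as extravillous trophoblast markers, served as an axis. The 16 clusters with a mean log2(CPM + 1) of the pair of at least 10, a value set after the clusters were seen, held 4153 cells of 7 libraries, none of them of Day 10, while the other 71 included every Day 10 cluster. INSL4 stood at a median of 3450.1 CPM (range 1695 to 7216) in these and at 216 CPM in the other 71 clusters. HSD17B2 stood at 517 CPM (range 252 to 850) against 44.6 CPM. HSD3B1 went the other way, with 172 CPM (range 9.31 to 404) against 452 CPM, and NPPB had a median of 23.8 CPM (range 1.28 to 1210) against 442 CPM. The ranges of the other 71 clusters overlapped these for each gene, and reached 3169 CPM for INSL4 and 649 CPM for HSD17B2. CGA had similar medians in both, 2138 CPM and 1823 CPM, but its range reached 187619 CPM outside the group and only 6177 CPM inside. In the WT Day 14 replicate 1 cluster with the most INSL4, of 119 cells, INSL4 stood at 7216 CPM, HSD3B1 at 69.3 CPM and NPPB at 1.28 CPM. A cluster of 114 cells of mutant Day 14 replicate 2, the highest in LAIR2 and ISM2 of all, held 2572 CPM of INSL4, 9.31 CPM of HSD3B1 and 2.47 CPM of NPPB. Clusters were also compared within each library. In the cluster of each library with the most LAIR2 and ISM2, INSL4 stood at a median of 2.84 times its level over all trophoblast-like cells and above it in 11 of 11 libraries. HSD17B2 stood at 2.22 times and above in 9 of 11, HSD3B1 at 0.400 times, CGA at 0.341 times and NPPB at 0.320 times, with a range over libraries from 0.00152 to 3.01 times. NPPB was highest of all clusters there in 2 libraries, those of WT Day 10. In these 2 libraries HSD17B2 stood at only 4.01 and 1.00 CPM in the picked cluster. The counts out of 11 include the Day 10 libraries and WT Day 12 replicate 1, whose clusters all lay below 10 on the pair. Clusters were formed from variable genes of the same cells, the 5 genes left out, and these contrasts are a description.

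**Figure D3:**
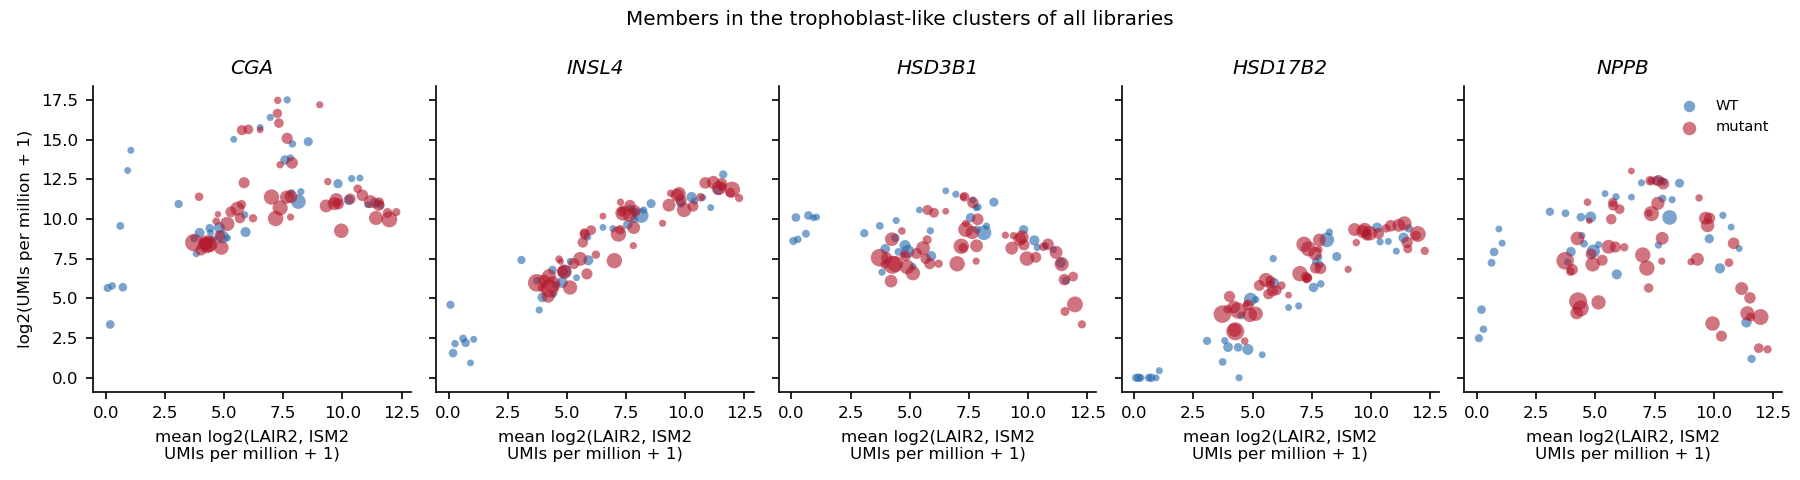
Level of each gene, as log2(CPM + 1), in each of the 87 trophoblast-like clusters against the mean log2(CPM + 1) of LAIR2 and ISM2, with point area growing with the number of cells, blue for WT and red for mutant. INSL4 and HSD17B2 are higher along the axis, HSD3B1 and NPPB are low at its upper end, and the highest CGA level, 187619 CPM, lies below a score of 10.

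Clusters were also picked in each library for the highest GCM1 and PGF, a syncytiotrophoblast transcription factor and the placental growth factor. There CGA exceeded its level over all trophoblast-like cells in 10 of 11 libraries, by a median of 6.36 times, and HSD3B1 did so in 10 of 11, by a median of 2.38 times. NPPB was above its own level in 8 of 11, by a median of 2.22 times. INSL4 was above it in 3 of 11 and HSD17B2 in 1 of 11. The exception for CGA and HSD3B1 was WT Day 14 replicate 1, where this choice fell on the INSL4-rich cluster of 119 cells named above. In the clusters picked for the cytotrophoblast markers PAGE4, XAGE3, VGLL1, PPARG and ITGA6, CGA was below its level over all trophoblast-like cells in 11 of 11 libraries. HSD3B1 kept a median of 0.546 times its level there, while INSL4 and CGA kept 0.0897 and 0.0795 times. HSD17B2 and NPPB kept 0.196 and 0.336 times. The WT Day 10 libraries went the other way for 3 genes, each highest of all clusters there. INSL4 stood at 3.01 and 4.20 times its trophoblast-like level, HSD17B2 at 3.42 and 4.79 times and NPPB at 3.01 and 2.92 times. In both of them the cytotrophoblast choice and the LAIR2 and ISM2 choice fell on the same cluster.

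Single cells differed in how evenly they held the genes. The 10% of trophoblast-like cells with the most UMIs of a gene held 32.2% to 60.1% of the HSD3B1 UMIs of a library, but 49.8% to 95.2% of those of CGA and 33.4% to 93.5% of those of NPPB. With each cell thinned to 5000 UMIs, which left out 1004 shallower cells (711 of them in mutant Day 14 replicate 1), HSD3B1 was detected in 47.7% to 92.7% of the trophoblast-like cells of a library. Without thinning the range was 62.7% to 99.8%. NPPB was detected in 13.7% to 88.4% of the thinned cells, INSL4 in 3.64% to 78.6% and HSD17B2 in 0% to 57.9%. The 0% in thinned cells was WT Day 10 replicate 2, whose 412 cells held 9 HSD17B2 UMIs before thinning, with 0.728% of them positive. For comparison, CGA was found in 7.32% to 41.8% of Epi-derived-like cells, whose median depth ran from 9253 to 92847 UMIs, against 47.5% to 98.7% of trophoblast-like cells with median depths from 11417 to 142895 UMIs. These shares depend on the ambient RNA correction. In uncorrected counts, which include ambient RNA, CGA was found in 59.7% to 100% of the trophoblast-like cells of a library. In mutant Day 14 replicate 1 the share was 96.2% before the correction and 47.5% after it. Mutant Day 14 replicate 1 had the lowest shares of NPPB (13.7%) and HSD3B1 (47.7%) after thinning and also the shallowest cells. Replicate 2, with a median depth of 27761 UMIs before thinning, had shares of 21.2% and 49.5%. WT Day 14 replicate 2, with a median of 27522 UMIs, had 66.6% and 72.4%. WT Day 14 replicate 1, with a median of 48724 UMIs, had 36.9% and 71.9%.

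A small set of cells devoted much of its transcriptome to CGA. Cells in which CGA took at least 10% of all UMIs, a cut set after the values were seen, numbered 0 in the WT Day 10 libraries, 1 and 4 at WT Day 12, 66 and 21 at WT Day 14, 3 at mutant Day 10, 25 and 74 at mutant Day 12 and 63 and 99 at mutant Day 14. The highest share in a single cell was 40.6%, in mutant Day 12 replicate 2. These cells were 0.969% to 3.67% of the trophoblast-like cells at Day 14 but gave 33.1% to 39.3% of the CGA UMIs. Their median depth was below that of the other trophoblast-like cells in most libraries that had them. It was 11042.5 UMIs in WT Day 14 replicate 1, against 49212 in its other trophoblast-like cells. In the mutant Day 14 libraries it was 8499 against 11440 and 13840 against 28257.5. The only exceptions were WT Day 14 replicate 2, with 38996 against 27260.0, and mutant Day 12 replicate 1, with 22070 against 19824.5. A cut of this kind divides a range, and between 0 and 62 cells of a library had a CGA share from 8% to 12%.

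HSD3B1 was higher in these CGA-rich cells. Among UMIs other than CGA, HSD3B1 stood at 4054 and 3645 CPM in the CGA-rich cells of the WT Day 14 libraries, against 514 and 642 CPM in the remaining trophoblast-like cells. In the mutant Day 14 libraries it stood at 1595 and 1129 CPM, against 189.7 and 305 CPM. NPPB stood at 2259 and 5383 CPM in CGA-rich cells of WT Day 14 and at 2477 and 3265 CPM at mutant Day 12, but at 220 and 236 CPM at mutant Day 14. NPPB was thus lower in the CGA-rich cells of mutant Day 14 than in those of these other groups, though the 3 such cells of mutant Day 10 held 145 CPM. The trophoblast-like cluster with the most NPPB held 1580 and 1857 CPM in the mutant Day 14 libraries, against 4924 and 5476 CPM in the WT Day 14 libraries. INSL4 in the CGA-rich cells stood at 2986 and 860 CPM at WT Day 14 and at 954 and 1011 CPM at mutant Day 14, ranges that overlap.

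Rank correlations across thinned trophoblast-like cells are given as a description. They rest on cells that share a library, and HSD17B2 had no UMI in the thinned cells of 1 library. INSL4 and HSD17B2 had the highest median Spearman rho over 10 libraries, 0.57 (range 0.19 to 0.71). CGA and NPPB followed with 0.46 (0.24 to 0.64), HSD3B1 and NPPB with 0.40 (0.09 to 0.59), CGA and INSL4 with 0.38 (0.10 to 0.55) and CGA and HSD3B1 with 0.37 (0.12 to 0.62), each over 11 libraries. HSD3B1 and HSD17B2, both steroid dehydrogenases, had 0.05 (-0.01 to 0.11), and HSD17B2 and NPPB 0.05 (-0.08 to 0.23). These last values are near 0.

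The genes most like each member across trophoblast-like cells were taken from 503 genes with a symbol that were detected in at least 10% of these cells in every library. CGA was closest to LOC102137969 (median Pearson r 0.78 over 11 libraries, range 0.68 to 0.91), PGF (0.72) and PDLIM2 (0.65). INSL4 and HSD17B2 had the same 3 nearest genes, PECAM1 (0.72 and 0.70), COTL1 (0.69 and 0.67) and CALCB (0.69 and 0.67). PECAM1 is a cell adhesion molecule of endothelium, COTL1 an actin-binding protein and CALCB the calcitonin gene-related peptide 2 gene. The lowest correlation of PECAM1 in a single library was -0.02 with INSL4 and -0.03 with HSD17B2. HSD3B1 was closest to PGF (0.51), LOC102137969 (0.51) and IGSF8 (0.45), an immunoglobulin superfamily membrane protein, and NPPB to IGSF8 (0.50), PGF (0.48) and LOC102137969 (0.45). With HSD3B1 the lowest correlations in a single library were 0.03 for PGF, 0.04 for LOC102137969 and 0.05 for IGSF8. With NPPB they were 0.18 for IGSF8, -0.15 for PGF and -0.01 for LOC102137969.

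Other genes of steroid metabolism, placental peptide hormones and trophoblast regulators were taken from lists chosen by function. Of 27 steroid genes other than the members 6 have an identifier here, of 28 peptide hormones, growth factors and their partners 6, and of 13 regulators all 13. The rest, CYP11A1, CYP19A1, STAR and the chorionic gonadotropin beta genes among them, were not analysed here. Between WT Day 14 and Day 10, 0 of the 6 steroid genes passed 1% and 2 were higher at 5%, where 1.62% of all genes passed 1% and 6.37% were higher at 5%. FDX1, the ferredoxin that passes electrons to mitochondrial steroid enzymes, stood at 157 and 262 CPM at Day 10 and 608 and 530.3 CPM at Day 14 (log2 difference 1.45, edgeR adjusted p = 0.0497). PGRMC1, a progesterone receptor membrane component, stood at 14.8 and 13.0 CPM and then at 39.4 and 34.8 CPM (1.41, edgeR adjusted p = 0.0186). The median log2 difference of the 6 was 0.60, beside 0.03 over all genes tested.

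Among the regulators 1 of 13 passed 1% in that comparison, beside 1.62% of all genes, and at 5% 3 were higher and 2 lower, beside 6.37% and 3.88%. CREM, a cAMP-responsive transcription factor, stood at 43.1 and 26.1 CPM at WT Day 10 and rose to 263 and 177 CPM at Day 14 (log2 difference 2.67, standard error 0.34, edgeR adjusted p = 0.00524). The mutant libraries held 153 to 228 CPM of CREM, the Day 10 library included with 221 CPM. At 5%, NRIP1, a nuclear receptor corepressor (1.63, edgeR adjusted p = 0.0102), and DLX6, a homeobox factor (2.04, edgeR adjusted p = 0.0291), were higher too. GATA3 (-1.20, edgeR adjusted p = 0.0188) and GATA2 (-1.42, edgeR adjusted p = 0.0484), zinc finger factors of the trophoblast, were lower. GATA2 had 490.5 and 447 CPM at Day 10 and 138 and 219 CPM at Day 14. The median of the 13 was 0.59. GCM1, a driver of syncytiotrophoblast formation, differed by 0.59 (edgeR adjusted p = 0.203) and PPARG by 0.61 (edgeR adjusted p = 0.105). GATA2, GATA3, GCM1, PPARG and VGLL1 were also among the markers that named the trophoblast-like clusters, so their levels here depend in part on that naming.

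Of the 6 peptide hormone and growth factor genes 0 passed 1% and 1 was higher at 5%, beside the same 1.62% and 6.37% of all genes. The 1 that passed 5%, NPR3, the natriuretic peptide clearance receptor, had 0 UMIs in both WT Day 10 libraries and 15 and 8 UMIs at Day 14, which is under 1 CPM. PGF had 404 and 382 CPM at Day 10 and 266 and 474 CPM at Day 14 (-0.12, edgeR adjusted p = 0.923). It was also among the markers that named the trophoblast-like clusters. ADM, adrenomedullin, stood at 6.60 and 5.95 CPM and at 10.8 and 17.8 CPM (1.16, edgeR adjusted p = 0.366). In the 3 comparisons of trophoblast-like cells that involve mutants and in the interaction, 0 of the 25 genes of the lists passed 1% or 5%, where at most 0.0132% of all genes passed either. The median log2 difference of mutant from WT at Day 14 was 0.29 for the steroid genes, 0.28 for the peptide genes and -0.41 for the regulators, beside 0.02 over all genes.

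In Epi-derived-like cells, unlike trophoblast-like cells, NPPB lay higher in Day 14 mutants than in WT, and the difference between the classes was not tested. It stood at 239 and 159.9 CPM in the mutant Day 14 libraries, from 589 and 439 UMIs, and at 9.52 and 3.37 CPM in the WT Day 14 libraries, from 238 and 9 UMIs. Both mutant values were above both WT values, as for CGA among the other members, and 48.3% of all genes tested did not overlap between these libraries. The NPPB values were also above the 16.5 and 64.8 CPM of mutant Day 12. The log2 difference at Day 14 was 4.79 (standard error 0.92, edgeR adjusted p = 0.0688), so it did not pass 1% or 5%. Of the 5 genes 0 passed 1% or 5%. Among the 13024 genes tested 0% passed 1%, 0.392% passed 5% and 19.5% had an unadjusted p under 0.05. NPPB was the 1 of the 5 under that value in edgeR and the 1 that DESeq2 called at 1% (DESeq2 adjusted p = 0.000837), beside 2.58% of the genes with a DESeq2 adjusted p, while limma called 0, beside 0.0921%. With no filter on low counts edgeR called 2 at 1%, INSL4 and NPPB, beside 3.31%. The differences of the other members were 1.02 for CGA, 2.29 for INSL4, 0.59 for HSD3B1 and 2.34 for HSD17B2, with edgeR adjusted p between 0.311 and 0.698. NPPB is among the genes in the study's own tables for mutant amnion, so its choice was not independent of this contrast. The 11 amnion markers, summed, stood at 190 and 435 CPM in Epi-derived-like cells of the mutant Day 14 libraries. They stood at 158 and 463 CPM in those of the WT Day 14 libraries, and overlapped. The value of 158 CPM, from WT replicate 1, leaves out its amnion-like cluster of 41 cells, which held 90.7 CPM of NPPB. No other Day 14 library had an amnion-like cluster, so amnion cells there, if any, were not set apart. The study describes an excess of amniotic cells among the epiblast derivatives of its mutants at the last day sampled. The part of amnion cells in the NPPB difference was not tested. Other lineages' markers did move with the result. The 14 trophoblast markers, summed, stood at 1049.7 and 742 CPM in the mutant and at 258 and 249.5 CPM in the WT Epi-derived-like cells, with none at 0. The 10 ExE-Mech markers stood at 231 and 234 CPM against 34.9 and 50.5 CPM, with 2 at 0 in WT replicate 2. The 10 endoderm markers stood at 68.0 and 4114 CPM against 33.7 and 13.5 CPM, the high value being the single cluster of mutant replicate 2. The part of these markers in the result was not tested.

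The ratio of NPPB to CGA before the ambient RNA correction was set beside this. At mutant Day 14, NPPB UMIs amounted to 49.5% and 42.7% of CGA UMIs in Epi-derived-like cells and to 28.4% and 19.0% in ExE-Mech-like cells, but to 2.68% and 3.01% in the trophoblast-like cells of the same libraries. At WT Day 14 the trophoblast-like cells were instead the highest, with 6.11% and 8.26% in Epi-derived-like, 3.52% and 4.84% in ExE-Mech-like and 11.8% and 20.1% in trophoblast-like cells. The correction had removed 0.842% and 2.44% of the NPPB UMIs of the mutant Day 14 Epi-derived-like cells.

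**Figure D4:**
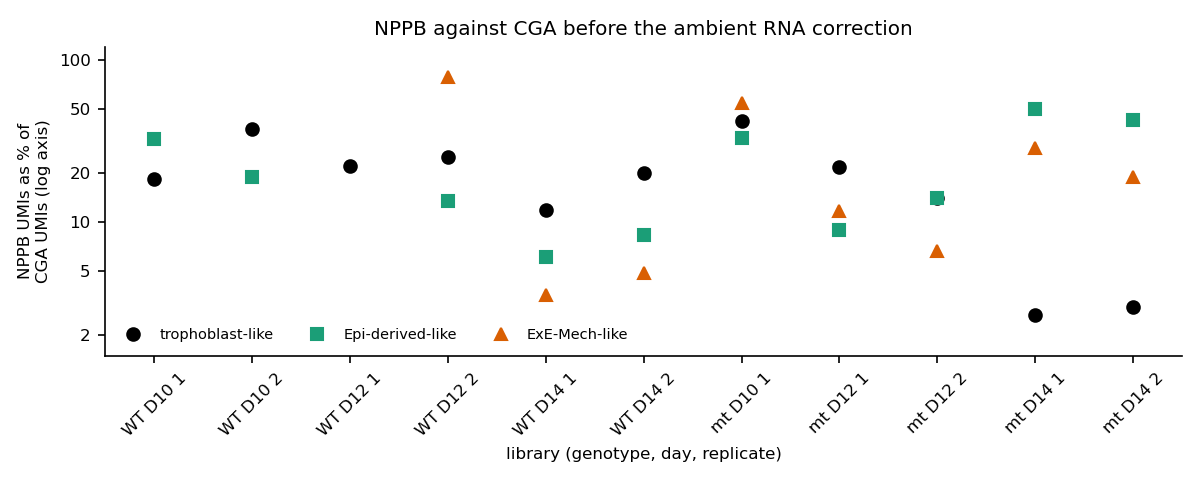
NPPB UMIs as a percentage of CGA UMIs (log axis) before the ambient RNA correction in trophoblast-like, Epi-derived-like and ExE-Mech-like cells of each library. In the mutant Day 14 libraries the trophoblast-like cells lie at 2.68% and 3.01%, under the other classes, whereas in the WT Day 14 libraries they lie above them. Outside Day 14, ExE-Mech-like cells lay above trophoblast-like cells in WT Day 12 replicate 2 and in mutant Day 10, and Epi-derived-like cells did so in WT Day 10 replicate 1 (32.4% against 18.5%).

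In ExE-Mech-like cells NPPB stood at 138 and 82.5 CPM at mutant Day 14, against 26.6 and 12.1 CPM at WT Day 14 and 27.0 and 13.3 CPM at mutant Day 12. The 1 WT Day 12 library with such cells had 82.8 CPM, and this comparison was not tested. The 14 trophoblast markers, summed, stood at 1085 and 1665 CPM in these cells at mutant Day 14, against 735 and 787 CPM at WT Day 14 and 422 to 767 CPM in the other 4 libraries, with none at 0. Their part in the result was not tested. The NPPB of ExE-Mech-like cells was uneven. In mutant Day 14 replicate 1 a cluster of 459 cells held 529 CPM and the other 3 held between 8.27 and 63.6 CPM, and in replicate 2 a cluster of 228 cells held 275 CPM and the other 3 between 3.90 and 31.7 CPM. In the Epi-derived-like cells of replicate 1, 126 cells with a median depth of 6820.0 UMIs gave 558 of the 589 NPPB UMIs. Replicate 2 had a single Epi-derived-like cluster, of 103 cells, with 36.9% of the cells holding a NPPB UMI (exact 95% interval 27.6% to 47.0%). An unnamed cluster of 250 cells in mutant Day 14 replicate 1, with a median depth of 4915.5 UMIs, held 526 CPM of NPPB.

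HSD17B2 stood at 30.5 and 24.0 CPM in ExE-Mech-like cells of mutant Day 14. In those of the other 6 libraries that had such cells the highest value was 11.7 CPM. The share of all genes highest in this pair of libraries was not counted, so this does not set HSD17B2 apart. The trophoblast markers were highest in the same pair of libraries, as given above, and their part was not tested. In each library 1 cluster stood highest, with 102.9 CPM against 7.83 to 14.8 CPM in the other 3 clusters of replicate 1 and 41.9 CPM against 2.11 to 16.7 CPM in those of replicate 2. INSL4 and HSD3B1 stayed at or under 30.7 CPM and 47.4 CPM in ExE-Mech-like cells of every library. CGA in ExE-Mech-like cells was highest in WT Day 14 replicate 1, at 851 CPM, against 238 CPM in WT Day 14 replicate 2 and 227 and 210.3 CPM at mutant Day 14. These levels were not tested.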

How the data were processed

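The authors counted UMIs with Cell Ranger 3.1.0 against Macaca_fascicularis_5.0 (Ensembl release 96), filtered genes and cells, and removed ambient RNA with SoupX. They deposited counts (uncorrected) and expected counts (the same after SoupX, whole numbers, no scaling). The corrected matrix was used, and 209 cells present only in the uncorrected one were left out; all columns were mapped. Symbols came from the study's tables (1020 identifiers). Here each library was clustered (2000 variable genes, 30 principal components, 20 neighbours, leidenalg 0.10.2, resolution 1, seed 42) without the 5 genes. Clusters were named where at least 3 markers were detected in 25% of cells and the mean log2(CPM + 1) of the markers was high. It had to lie within 2.5 of the best cluster of the same library, and that best value had to reach 6 (5.5 for amnion). Amnion was named only where no other lineage qualified. Clusters with more markers of another lineage among their top 10 genes stayed unnamed. Names are thus relative to each library, and the rule was set after clusters were seen. No doublet caller was run and mixed clusters were kept apart. UMIs were summed per library and class (at least 5 cells) and tested with edgeR 4.0.16 (TMM, filterByExpr, quasi-likelihood, one fit over all groups), checked on simulated counts. DESeq2 1.42.0 and limma 3.58.1 were alternatives. A library was the replicate, and since embryos were pooled, p-values measure the spread between libraries. Levels per class are untransformed sums. Intervals are exact binomial and, like limits for a count of 0 (3 counts), cover counting error only.

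The batch label numbers replicates and was taken to pair them within each genotype. The correlation of same-numbered deviations in trophoblast-like cells was 0.12, 0.09 and 0.20 between the pairs of WT days and 0.00 between mutant Day 12 and Day 14, and in Epi-derived-like cells 0.11 in WT and 0.21 in mutants. Across genotypes it ran from -0.19 to 0.08, so numbers were not taken to pair samples across genotypes. The 0.00 of mutants and the 0.09 of WT Day 10 with Day 14 lie within or near that range. Pairing within a genotype thus rests on the label, and the block by genotype on that pairing. The genes named are the 5 members, the list genes with an identifier and for each member the 3 genes with the highest median correlation over libraries. The members and lists were chosen with earlier results of these data known. Alternatives tried are given in the closing section.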

Additional observations from a re-analysis of the deposited data

Results flagged for a closer look

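NPPB lay on opposite sides of WT in mutants at Day 14 in different classes of cell, every library of one genotype lying on one side of the other. The log2 ratio of the mean CPM of mutant to WT was -2.80 in trophoblast-like cells, 4.95 in Epi-derived-like cells and 2.51 in ExE-Mech-like cells. CGA at Day 14 had a ratio of 1.06 in Epi-derived-like cells and of -1.32 in ExE-Mech-like cells, again with no overlap between genotypes in either class. The Epi-derived-like CGA values were 129 and 14.2 CPM in WT and 149 and 150.1 CPM in mutants, and they depend on the ambient RNA correction. The ExE-Mech-like values were 851 and 238 CPM in WT and 227 and 210.3 CPM in mutants. Without WT replicate 1 the ExE-Mech-like ratio of CGA was -0.12 and the Epi-derived-like one 3.39, and without WT replicate 2 the latter was 0.21, while for NPPB leaving out a library gave -3.82 to -1.93 in trophoblast-like, 4.39 to 5.89 in Epi-derived-like and 2.05 to 3.19 in ExE-Mech-like cells. Genes without overlap in both classes and on opposite sides were 5.25% of those tested in trophoblast-like and Epi-derived-like cells, 3.14% for trophoblast-like with ExE-Mech-like cells and 3.54% for Epi-derived-like with ExE-Mech-like cells. The differences between classes were not tested.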

How the results depend on the processing

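The number of the 5 genes called between WT Day 14 and Day 10 was 0 at a false discovery rate of 1%, 2 at 5%, 3 with DESeq2, 2 with no filter on low counts, 2 with limma on the mean of cells and 0 to 2 when a library was left out, the 2 coming without WT Day 14 replicate 2. Between genotypes at Day 14, DESeq2 called 1 gene in trophoblast-like cells and 1 in Epi-derived-like cells, and with no filter 2 were called in the latter (INSL4 and NPPB). The causes were not tested. The replicate block by genotype called 2 genes between WT Day 14 and Day 10 and the block shared by both genotypes called 0, and neither changed another call. Uncorrected counts put CGA in Epi-derived-like cells at a median of 189.8 CPM and INSL4 in ExE-Mech-like cells at 22.6 CPM, and thinning put the median share of cells with HSD3B1 at 72.4%.

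Over all alternatives 39 log2 differences of the members reversed direction, 474 kept direction and call, and 17 kept direction and gained a call. No member had passed 1% in a main comparison, so no reversal could undo a call. For the Epi-derived comparison over all cells of a library, most of them trophoblast-like, the log2 differences were -0.18 for CGA, -0.016 for INSL4, -1.19 for HSD3B1 and -2.38 for NPPB. For genotype at Day 14 in trophoblast-like cells, INSL4 was 0.17 with limma, 0.33 with the shared replicate block and 0.0030 with uncorrected counts, and HSD17B2 was -0.086 with the block by genotype. At Day 12 HSD17B2 was -0.46 with that block. Between mutant days it was -0.10 with limma. The interaction of HSD17B2 was 0.064 at a clustering resolution of 0.5, 0.14 with limma and 0.38 with the block by genotype, and that of HSD3B1 0.21 at that resolution and 0.094 without the 5% of cells with the most UMIs.

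Leaving out 1 library at a time leaves its group with a lone library, assumed to vary like the other groups. Between WT Day 14 and Day 10 it gave 1.78 to 2.93 for CGA, 3.50 to 6.40 for INSL4, 5.81 to 10.07 for HSD17B2, 0.96 to 2.18 for NPPB and -0.72 to 0.18 for HSD3B1, and -0.79 to 0.91 for CGA and -0.0057 to 0.46 for HSD17B2 between mutant days. For genotype at Day 14 it gave -1.35 to 0.35 for CGA, -0.76 to 1.66 for INSL4 and -0.35 to 3.06 for HSD17B2, and at Day 12 -0.064 to 2.02 for HSD17B2. The interaction ran from -0.37 to 1.33 for CGA, -1.80 to 0.62 for INSL4, -0.79 to 0.44 for HSD3B1 and -1.51 to 2.44 for HSD17B2. In Epi-derived-like cells INSL4 ran from -0.54 to 4.73, HSD3B1 from -0.54 to 2.76 and HSD17B2 from -0.0095 to 9.88. NPPB kept its direction in trophoblast-like cells in each of these settings.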

Other observations

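The 209 cells left out because they are in the uncorrected matrix alone were shallow, with a median of 3942 UMIs. Their summed uncorrected UMIs gave 35627 CPM of CGA, 647 CPM of INSL4, 571 CPM of HSD3B1, 80.2 CPM of HSD17B2 and 436 CPM of NPPB.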
